A study of Mus musculus with 24 samples.

Results

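The comparison described here set untreated mouse cells on day 6 of a neural progenitor differentiation against untreated cells on day 4 of the same differentiation. Its members were the 2 libraries of untreated cells labelled day 6 and the 2 labelled day 4, 4 of the 24 libraries of the series, chosen by their labels and not by any measured value. The cells were F123, a hybrid mouse embryonic stem cell line, in which the chromatin protein CTCF carries an auxin-inducible degron (CTCF-AID), so that adding auxin removes the protein. The degron was present in the controls too, and the day 4 and day 6 controls differentiated without auxin. Groups set beside them were untreated cells on day 2, and cells kept in auxin (500 mM stock, added at 1 µl per ml and renewed each day) and harvested on day 4 or day 6, with 2 libraries each. Auxin-treated cells of day 2, and cells harvested 2 days after a washout of the auxin begun on day 4 or on day 6, again with 2 libraries each, entered the fit and so the estimate of the spread behind every p-value, but are not otherwise described. Total RNA was sequenced on an Illumina HiSeq4000. The labels do not say whether the cells were 1 clone, whether the 2 libraries of a group came from separate cultures, or what the differentiation medium held. The p-values therefore measure the spread between these libraries, which may be technical.

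In the developing neural tube, cycling progenitors that express Sox and Pax factors and the intermediate filament nestin give rise to neurons under proneural basic helix-loop-helix (bHLH) factors, while Notch signalling between neighbouring cells keeps others in the progenitor state. A cell that leaves the cycle as a neuron switches on neuronal tubulins and microtubule-binding proteins, RNA-binding proteins that set neuronal splicing, axon guidance receptors and, later, the parts of the synapse. Cultures that leave the embryonic stem cell state also commonly hold cells of the mesoderm and endoderm.

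The 4 libraries held between 61043565 and 72048935 counts each. Values below are counts scaled to library size (CPM), given as replicate 1 and then replicate 2, and a log2 fold change is day 6 over day 4 with its standard error. All p-values come from the quasi-likelihood test of edgeR and were adjusted over the 22587 genes tested by the Benjamini-Hochberg method. A gene was called changed at an adjusted p under 0.05. By that rule 6030 genes (26.7%) changed, of which 3069 rose (13.6%) and 2961 fell (13.1%). Changes over 2-fold were found for 1952 genes (8.64%), of which 1137 rose (5.03%) and 815 fell (3.61%). The median log2 fold change of all tested genes was -0.0047. For 15229 genes (67.4%) the libraries of day 4 and day 6 did not overlap, so that separation between groups of 2 was common and is reported below only as a description. The replicates of both groups lay close together, with an SD of the log2 ratio between replicates of 0.121 on day 4 and 0.134 on day 6. Between day 2 and day 4, 11726 genes (51.9%) had changed by the same rule, 27.1% upward and 24.8% downward, with 9.93% lower by over 2-fold; that comparison shares the day 4 libraries with this one, and its values are only set beside the later ones.

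**Figure D1:**
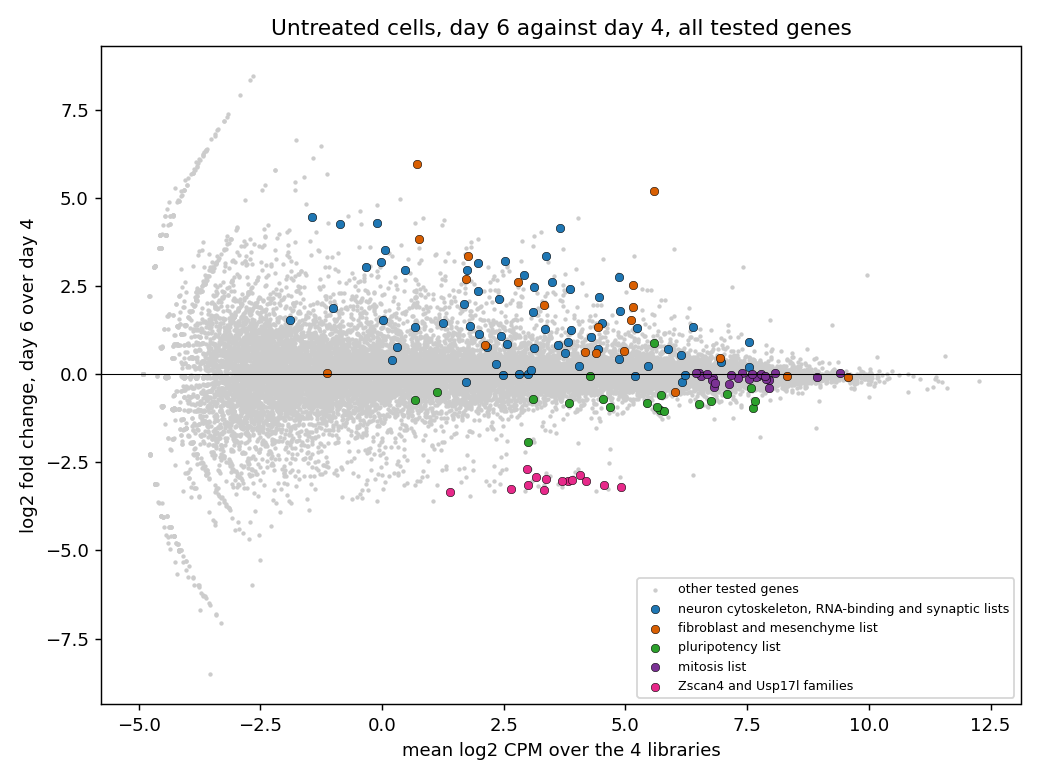
Log2 fold change of each of the 22587 tested genes, day 6 over day 4, in untreated cells (vertical axis) against its mean log2 CPM over the 4 libraries (horizontal axis), with members of 5 gene groups coloured. Genes of the 3 neuronal lists and of the mesenchyme list lie mostly above 0, pluripotency genes mostly just below 0, mitosis genes close to 0, and the Zscan4 and Usp17l families together near -3.

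The genes of the neuronal cytoskeleton rose as a group. Of 24 such genes tested, 20 rose, none fell and 4 did not pass; 15 rose over 2-fold, and the list's median log2 fold change was 1.33. When the 8 stem cell libraries were added to the fit, 15 of the 24 rose; the same fit gave 6 of 15 for RNA-binding proteins, 15 of 33 for adhesion, 11 of 24 for synaptic genes, 13 of 26 for ion channels, 9 of 31 for motor neuron and interneuron factors and 8 of 19 for newborn neuron factors, each with none lower. Dcx, which encodes the microtubule-binding protein doublecortin of migrating young neurons (chrX:143855842-143933311, minus strand, mm10), had 3.01 and 2.97 CPM on day 4 and 52.9 and 52.6 CPM on day 6. The groups lay far apart, at a log2 fold change of 4.14 ± 0.13 (adjusted p = 1.7e-13). In these bulk samples more cells of a type and more RNA per cell cannot be told apart, for Dcx and for every gene below.

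Tubb3, the neuronal beta-tubulin (chr8:123411424-123422015, plus strand), had 11.7 and 11 CPM on day 4 and 72.2 and 79.6 CPM on day 6, a log2 fold change of 2.74 ± 0.09 (adjusted p = 5.9e-13). Stmn2, a regulator of microtubules in growing axons (chr3:8509360-8561606, plus strand), had 6.08 and 6.46 CPM on day 4 and 32 and 34.6 CPM on day 6 (2.41 ± 0.10, adjusted p = 8.6e-12). Neither gene was at its lowest on day 2: Tubb3 had 40.3 and 41.5 CPM then, and Stmn2 had 90.7 and 87.7 CPM. Stmn2 on day 6 thus stayed below its level on day 2, while Tubb3 went above it. The neurofilament gene Nefm had 3.04 and 3.4 CPM on day 4 and 32.7 and 33.8 CPM on day 6 (3.36 ± 0.15, adjusted p = 2.6e-11). Stmn4, a stathmin of the nervous system, had the largest log2 fold change of the list, 4.25 ± 0.45 (adjusted p = 1.1e-06), from 0.0676 and 0.153 CPM to 2.48 and 1.86 CPM. Gap43 of the growth cone (3.20 ± 0.21, adjusted p = 3.0e-09), Stmn3 (2.96 ± 0.23) and the dendritic protein gene Map2 (2.20 ± 0.13) also rose.

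The rise did not take in every neuronal filament and motor. Nefh, the heavy neurofilament, had 7.99 and 8 CPM on day 4 and 8.21 and 7.76 CPM on day 6 (0.00 ± 0.12, adjusted p = 0.99). Peripherin (Prph) had 6.17 and 5.11 CPM and then 5.07 and 6.03 CPM (adjusted p = 0.96). Uchl1, a neuronal ubiquitin hydrolase, had 80.3 and 71 CPM and then 68.7 and 79.5 CPM (adjusted p = 0.91), so its groups overlapped. The fourth member that did not pass was the kinesin Kif21b, at -0.22 ± 0.09 (adjusted p = 0.078).

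**Figure D2:**
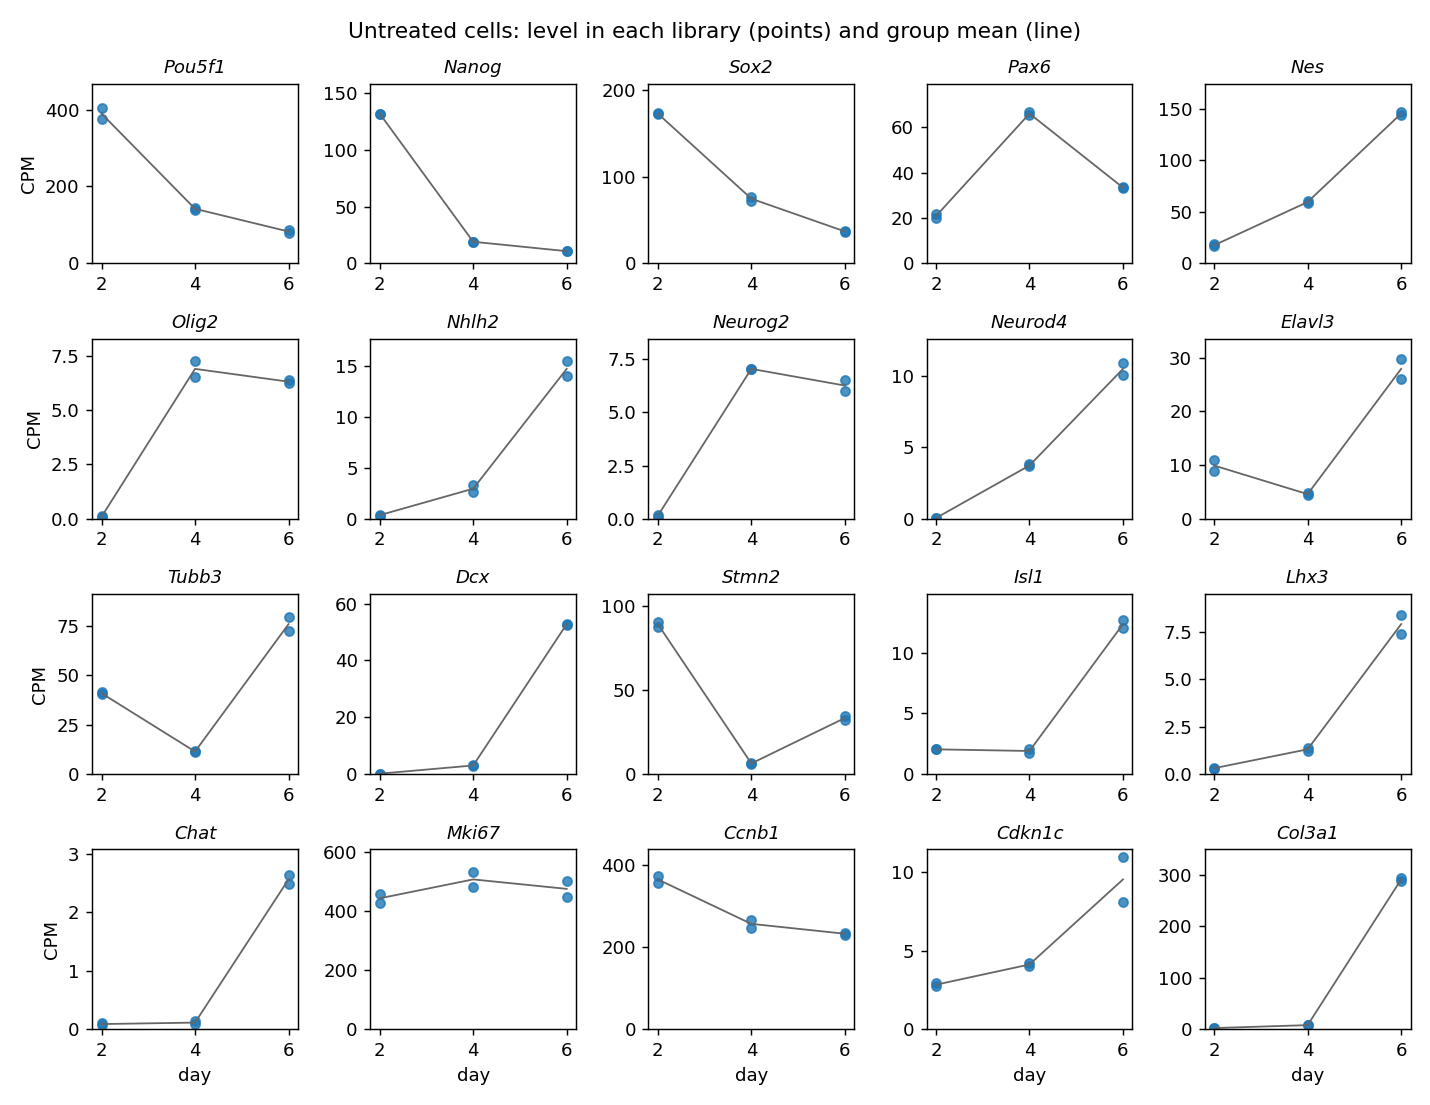
CPM of 20 genes in untreated cells (vertical axes, linear and starting at 0) on days 2, 4 and 6 (horizontal axes); each point is 1 library and the grey line joins the means of the 2 libraries. Dcx, Isl1, Chat and Col3a1 stay low until day 4 and are high on day 6, Tubb3 and Stmn2 dip on day 4, and Mki67 has overlapping libraries on days 4 and 6.

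Neuronal RNA-binding proteins rose with the cytoskeleton, 13 of the 15 tested, with none lower and a median of 1.13. The promoters of Elavl3, HuC, a stabiliser of neuronal mRNAs, and of Celf3, a neuronal splicing regulator, are shown because both genes rose over 2-fold and both carry the E-box CAGCTG, a core sequence that proneural bHLH proteins are known to bind. Each window runs from 250 bases before to 50 bases after the RefSeq start (GRCm38.p6), 5′ to 3′ on the gene's own strand, with the E-box in capitals; Elavl3 lies at chr9:22051974-22052273 on the minus strand and Celf3 at chr3:94482472-94482771 on the plus strand.
Elavl3: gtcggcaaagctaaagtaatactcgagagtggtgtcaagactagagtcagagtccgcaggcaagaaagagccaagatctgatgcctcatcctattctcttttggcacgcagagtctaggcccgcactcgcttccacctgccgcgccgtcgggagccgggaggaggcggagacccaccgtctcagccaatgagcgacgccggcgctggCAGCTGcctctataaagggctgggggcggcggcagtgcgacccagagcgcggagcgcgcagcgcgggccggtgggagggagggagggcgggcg
Celf3: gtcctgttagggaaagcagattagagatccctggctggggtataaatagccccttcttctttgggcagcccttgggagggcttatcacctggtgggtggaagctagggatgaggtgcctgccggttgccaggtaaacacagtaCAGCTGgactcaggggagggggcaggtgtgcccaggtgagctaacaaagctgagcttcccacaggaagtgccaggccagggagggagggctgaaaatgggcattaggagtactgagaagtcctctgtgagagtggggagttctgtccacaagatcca
The E-box begins 43 bases before the start of Elavl3 and 107 bases before that of Celf3. CAGCTG reads the same on both strands. It was present in 5 of the 13 RNA-binding genes with a promoter in the table (38.5%), namely Celf3, Elavl2, Elavl3, Khdrbs2 and Nova1, and in 6 of 17 synaptic genes (35.3%). It was in 2 of 14 cytoskeleton genes (14.3%), 2 of 16 ion channel genes (12.5%) and 0 of 26 adhesion genes, and in 16.1% of all 27025 promoters of that length. The other E-box searched, CAGATG on either strand, was in 7.69% of the RNA-binding and 5.88% of the synaptic promoters, against 17.2% of all. Among genes that changed over 2-fold, CAGCTG was in 20.1% of 723 promoters of genes that rose and in 19% of 410 of genes that fell. That is nearly the same share in both directions, beside 15.9% of the promoters of all tested genes. For CAGATG the shares were 15.1% and 16.1%, beside 12.5% of tested genes. A match says only that the letters are there.

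Elavl3 had 4.71 and 4.44 CPM on day 4 and 26.1 and 29.7 CPM on day 6 (2.61 ± 0.16, adjusted p = 7.7e-10). Celf3 had 1.44 and 1.16 CPM and then 10.8 and 12.4 CPM (3.16 ± 0.22, adjusted p = 5.9e-09). In both genes the groups were well apart. Elavl4 (2.82 ± 0.14), Srrm4, which promotes neuronal microexons (2.14 ± 0.17), and Rbfox1 (3.52 ± 0.44, from 0.27 and 0.306 CPM to 3.02 and 3.64 CPM) rose as well. Rbfox3, the antigen of the NeuN antibody and a marker of more mature neurons, had 0.912 and 0.948 CPM on day 4 and 2.02 and 1.2 CPM on day 6, and did not pass (0.78 ± 0.29, adjusted p = 0.058). Ptbp2, the neural form of the splicing repressor PTB, rose by a log2 fold change of only 0.34 ± 0.08 (adjusted p = 0.0025).

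Adhesion and guidance molecules were the list with the most rising members: 28 of 33 rose, 1 fell and 4 did not pass, 18 rose over 2-fold, and the median was 1.05. Receptors of repulsive and attractive cues were among them. Unc5c, a netrin receptor, had 3.85 and 3.78 CPM on day 4 and 43.9 and 46.4 CPM on day 6 (3.56 ± 0.16, adjusted p = 6.1e-11). Dcc, the attractive netrin receptor of commissural axons, had 0.929 and 1.3 CPM and then 4.21 and 4.22 CPM (1.91 ± 0.24, adjusted p = 7.5e-06). The ligands moved too: Ntn1, netrin itself, rose by 0.96 ± 0.08, and Slit2, a midline repellent, rose from 17.7 and 17 CPM to 94.4 and 91.9 CPM (2.42 ± 0.14, adjusted p = 1.3e-09). Cntn2, the axonal adhesion protein TAG-1, had 10.2 and 11.2 CPM on day 4 and 75.4 and 78.7 CPM on day 6 (2.84 ± 0.11, adjusted p = 5.1e-12). L1cam (2.66 ± 0.14) and the ephrin receptor gene Epha3 (2.92 ± 0.16) rose by similar amounts. The exception was Plxna2, a semaphorin co-receptor, which fell from 143 and 145 CPM to 83.8 and 82.6 CPM (-0.79 ± 0.12, adjusted p = 1.2e-04).

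The clustered protocadherins, cell-surface proteins that diversify neuronal identity, rose in part. Of 20 protocadherin beta genes tested 13 rose and none fell, with a median log2 fold change of 1.79; their summed level was 12.3 and 12.3 CPM on day 4 and 35.2 and 33.9 CPM on day 6. Of 21 gamma genes 5 rose, with a median of 0.26 and summed levels of 64 and 65.5 CPM and then 86.5 and 87.2 CPM. With upper-quartile scaling 1 gamma gene was also lower, and in the fit with stem cell libraries 3 beta genes and no gamma gene passed. Members of a cluster are similar in sequence, so reads of single members are uncertain. This group was chosen after its values were seen.

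Synaptic genes rose from low levels. Of 24 genes for synaptic vesicles and release 18 rose, none fell and 6 did not pass, with a median of 1.36. Rab3c, a vesicle GTPase, had 0.203 and 0.184 CPM on day 4 and 3.5 and 4.16 CPM on day 6 (4.30 ± 0.40, adjusted p = 2.8e-07). Syt4, a synaptotagmin, had 0.0338 and 0.0918 CPM and then 1.45 and 1.47 CPM (4.47 ± 0.70, adjusted p = 1.0e-04). The fusion protein gene Snap25 rose as well (2.95 ± 0.29, from 0.355 and 0.612 CPM to 3.82 and 3.71 CPM). Vamp2, Syn1, Syn2, Rims2 and Chga did not pass, with log2 fold changes between -0.22 and 0.30.

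Of 26 ion channel and transmitter receptor genes tested 20 rose, none fell and 6 did not pass, with a median of 1.35. With upper-quartile scaling, and with the day 2 auxin group left out of the fit, 1 of the 26 was lower. The AMPA receptor gene Gria2 had 0.27 and 0.367 CPM on day 4 and 3.95 and 3 CPM on day 6 (3.43 ± 0.33, adjusted p = 6.0e-07), and the sodium channel gene Scn9a had 0.237 and 0.367 CPM and then 2.35 and 2 CPM (2.83 ± 0.31, adjusted p = 2.1e-06). The calcium and sodium channel genes Cacna1a (-0.15 ± 0.09) and Scn8a (-0.29 ± 0.11) did not pass.

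Genes of the cholinergic transmitter identity, which motor neurons use, were among the steepest of the transmitter list, of which 9 of 16 rose, 1 fell and 6 did not pass. Chat, choline acetyltransferase, had 0.135 and 0.0918 CPM on day 4 and 2.48 and 2.64 CPM on day 6 (4.48 ± 0.46, adjusted p = 9.4e-07). Slc18a3, the vesicular acetylcholine transporter, had 1.86 and 2.17 CPM and then 9.19 and 12.1 CPM (2.40 ± 0.20, adjusted p = 6.6e-08), and the choline transporter gene Slc5a7 rose by 2.59 ± 0.34. Genes of other transmitters were mixed. Th, tyrosine hydroxylase of catecholamine neurons, rose from 0.101 and 0.122 CPM to 2.1 and 2.32 CPM (4.27 ± 0.46, adjusted p = 1.7e-06), and the glycine transporter gene Slc6a5 rose by 2.82 ± 0.53. Gad1, the GABA-synthesising enzyme, had 1.52 and 1.3 CPM and then 1.88 and 1.61 CPM (adjusted p = 0.38). Slc17a6, a vesicular glutamate transporter, had 2 counts over both day 4 libraries and 28 over both day 6 libraries, a ratio of 13.2 (exact 95% interval 3.33 to 114, for counting error only); its call (adjusted p = 0.035) was lost on leaving out any single library of the 4. Slc17a7, another vesicular glutamate transporter, fell from 1.69 and 1.79 CPM to 0.826 and 0.782 CPM (-1.11 ± 0.18, adjusted p = 1.2e-04).

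Transcription factors of spinal motor neurons and interneurons split by gene, with 15 of 31 higher, 4 lower and 12 that did not pass (median 0.83). The LIM-homeodomain factors of motor neurons rose. Isl1 had 2.03 and 1.76 CPM on day 4 and 12 and 12.7 CPM on day 6 (2.71 ± 0.13, adjusted p = 7.1e-11), and Lhx3, its partner in motor neuron specification, had 1.22 and 1.39 CPM and then 8.43 and 7.42 CPM (2.60 ± 0.29, adjusted p = 3.0e-06). Lhx4 (3.35 ± 0.31) and Isl2 (2.28 ± 0.25) rose as well. Mnx1, the factor also called HB9, rose less, from 5.34 and 5.69 CPM to 9.39 and 10.2 CPM (0.83 ± 0.16, adjusted p = 8.5e-04). Gata2 of V2b interneurons, which blood progenitors also express, rose by 2.57 ± 0.10. Evx1 of V0 interneurons had 3 counts on day 4 and 44 on day 6, a ratio of 13.8 (exact 95% interval 4.43 to 69.6). The 4 that fell were Lhx2 (-1.02 ± 0.14), Tlx1 (-1.20 ± 0.41), Lbx1 (-0.97 ± 0.31) and Pou4f1 (-0.47 ± 0.13). Of these Lhx2 alone kept its call without each single library of the 4: Tlx1 and Lbx1 lost it without day 4 replicate 2 and without either day 6 replicate, and Pou4f1 without either day 4 replicate and without day 6 replicate 1. Lhx1 had 8.18 and 7.77 CPM and then 7.42 and 7.74 CPM (adjusted p = 0.75).

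Factors that accompany the birth of neurons rose in 13 of 19 cases, with 1 lower and 5 that did not pass (median 0.86). Myt1, a zinc-finger protein of newborn neurons, had 0.608 and 1.47 CPM on day 4 and 13.1 and 12.7 CPM on day 6 (3.62 ± 0.37, adjusted p = 2.8e-06). Scrt1 (3.05 ± 0.33), Bcl11a (3.04 ± 0.18) and St18 (2.71 ± 0.35) rose by comparable amounts. The exception was Sox4, which fell from 114 and 127 CPM to 75.2 and 82.4 CPM (-0.61 ± 0.13, adjusted p = 0.002), while its relative Sox11 rose from 166 and 172 CPM to 229 and 227 CPM (0.43 ± 0.07, adjusted p = 1.1e-04).

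The proneural factors did not move together. Of 15 listed, 2 had no counts in the 4 libraries and 13 were tested, of which 6 rose, 2 fell and 5 did not pass (median 0.59). Neurog2, a factor that starts neurogenesis, had 7.05 and 7.04 CPM on day 4 and 6.51 and 6.01 CPM on day 6 and did not pass (adjusted p = 0.7). Factors that act later in the cascade rose: Neurod4 went from 3.8 and 3.66 CPM to 10.9 and 10.1 CPM (1.49 ± 0.26, adjusted p = 4.0e-04), Nhlh1 rose by 2.19 ± 0.28, and Nhlh2 went from 2.64 and 3.27 CPM to 14 and 15.5 CPM (2.31 ± 0.16, adjusted p = 6.6e-09). Atoh1 of dorsal progenitors fell from 0.27 and 0.398 CPM to 0.0991 and 0.0838 CPM (-1.86 ± 0.48, adjusted p = 0.0075), a call lost without replicate 2 of either day.

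In the Notch pathway the ligand Dll1 had 9.88 and 8.95 CPM on day 4 and 7.75 and 6.72 CPM on day 6 (-0.38 ± 0.13, adjusted p = 0.041), a call lost without any single library of the 4. Jag2 fell more clearly, from 43.4 and 47.4 CPM to 24.4 and 25 CPM (-0.88 ± 0.08, adjusted p = 9.0e-08). Of the receptors Notch3 rose from 81.8 and 86.1 CPM to 143 and 155 CPM (0.83 ± 0.18, adjusted p = 0.0057), while Notch1 and Notch2 did not pass. Of 6 target genes Hey1 (1.53 ± 0.19), Hey2 (1.15 ± 0.27) and Heyl (1.63 ± 0.38) rose; Hey2 and Heyl lost the call without day 4 replicate 2, and none of the 6 passed with the stem cell libraries in the fit. Hes5, the classical target in neural progenitors, had 1.81 and 1.25 CPM and then 1.06 and 1.82 CPM (adjusted p = 0.93), and Hes1 had 46 and 45 CPM and then 41.4 and 52.8 CPM (adjusted p = 0.85).

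Against the label of a neural progenitor differentiation, progenitor markers went in both directions: of 21 tested, 10 rose, 5 fell and 6 did not pass. The factors of the early neuroepithelium fell. Sox2 had 72.5 and 77 CPM on day 4 and 36.2 and 37.7 CPM on day 6 (-1.02 ± 0.08, adjusted p = 2.8e-08), and Pax6 (chr2:105668900-105697364, plus strand) had 65.4 and 66.8 CPM and then 33.2 and 33.7 CPM (-0.98 ± 0.08, adjusted p = 5.0e-08). Sox1 (-0.73 ± 0.13), Sox3 (-1.09 ± 0.15) and Sox21 (-0.56 ± 0.13, lost without day 6 replicate 1) fell with them. Genes of radial glia and of the progenitor cytoskeleton rose: Nes, nestin, had 58.2 and 61.1 CPM and then 147 and 144 CPM (1.29 ± 0.07, adjusted p = 4.2e-10), the glutamate transporter gene Slc1a3 had 33.1 and 37.7 CPM and then 109 and 105 CPM (adjusted p = 8.2e-11), Fabp7 rose by 3.17 ± 0.48 and Sox9 by 1.09 ± 0.10. Tnc, tenascin C (3.65 ± 0.09), Vim (0.61 ± 0.08) and Nes are also expressed by mesenchymal cells.

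Patterning factors of the neural tube were mostly at their day 4 level or below it, with 2 of 20 higher (1 without any single library of the 4), 8 lower and 10 that did not pass (median -0.41). Irx3, a factor of intermediate progenitor domains, fell from 57.4 and 64.2 CPM to 9.29 and 11.9 CPM (-2.52 ± 0.13, adjusted p = 1.0e-10). The dorsal genes Msx1 (-2.34 ± 0.14) and Lmx1a (-2.03 ± 0.18) fell, as did Nkx6-2 (-1.77 ± 0.18). The motor neuron progenitor factors did not pass: Olig2 had 6.52 and 7.28 CPM on day 4 and 6.38 and 6.24 CPM on day 6 (adjusted p = 0.63), and Nkx6-1 had 13.9 and 14.1 CPM and then 12.9 and 15.7 CPM (adjusted p = 0.88). On day 2 Olig2 had been at 0.102 and 0.0748 CPM and Nkx6-1 at 0.306 and 0.299 CPM. In the hedgehog pathway, which patterns the ventral tube, 4 of 13 genes rose (2 without day 6 replicate 2) and 2 fell (1 without any single library of the 4): the ligand Shh rose by 0.53 ± 0.16 (lost without day 4 replicate 1 or day 6 replicate 2), the effector Gli1 from 24.9 and 26 CPM to 36.6 and 36.5 CPM (0.52 ± 0.09, adjusted p = 2.4e-04) and the target Hhip by 0.88 ± 0.13, while the co-receptor gene Gas1 fell by 0.69 on the log2 scale (SE 0.08, adjusted p = 2.3e-06).

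**Figure D3:**
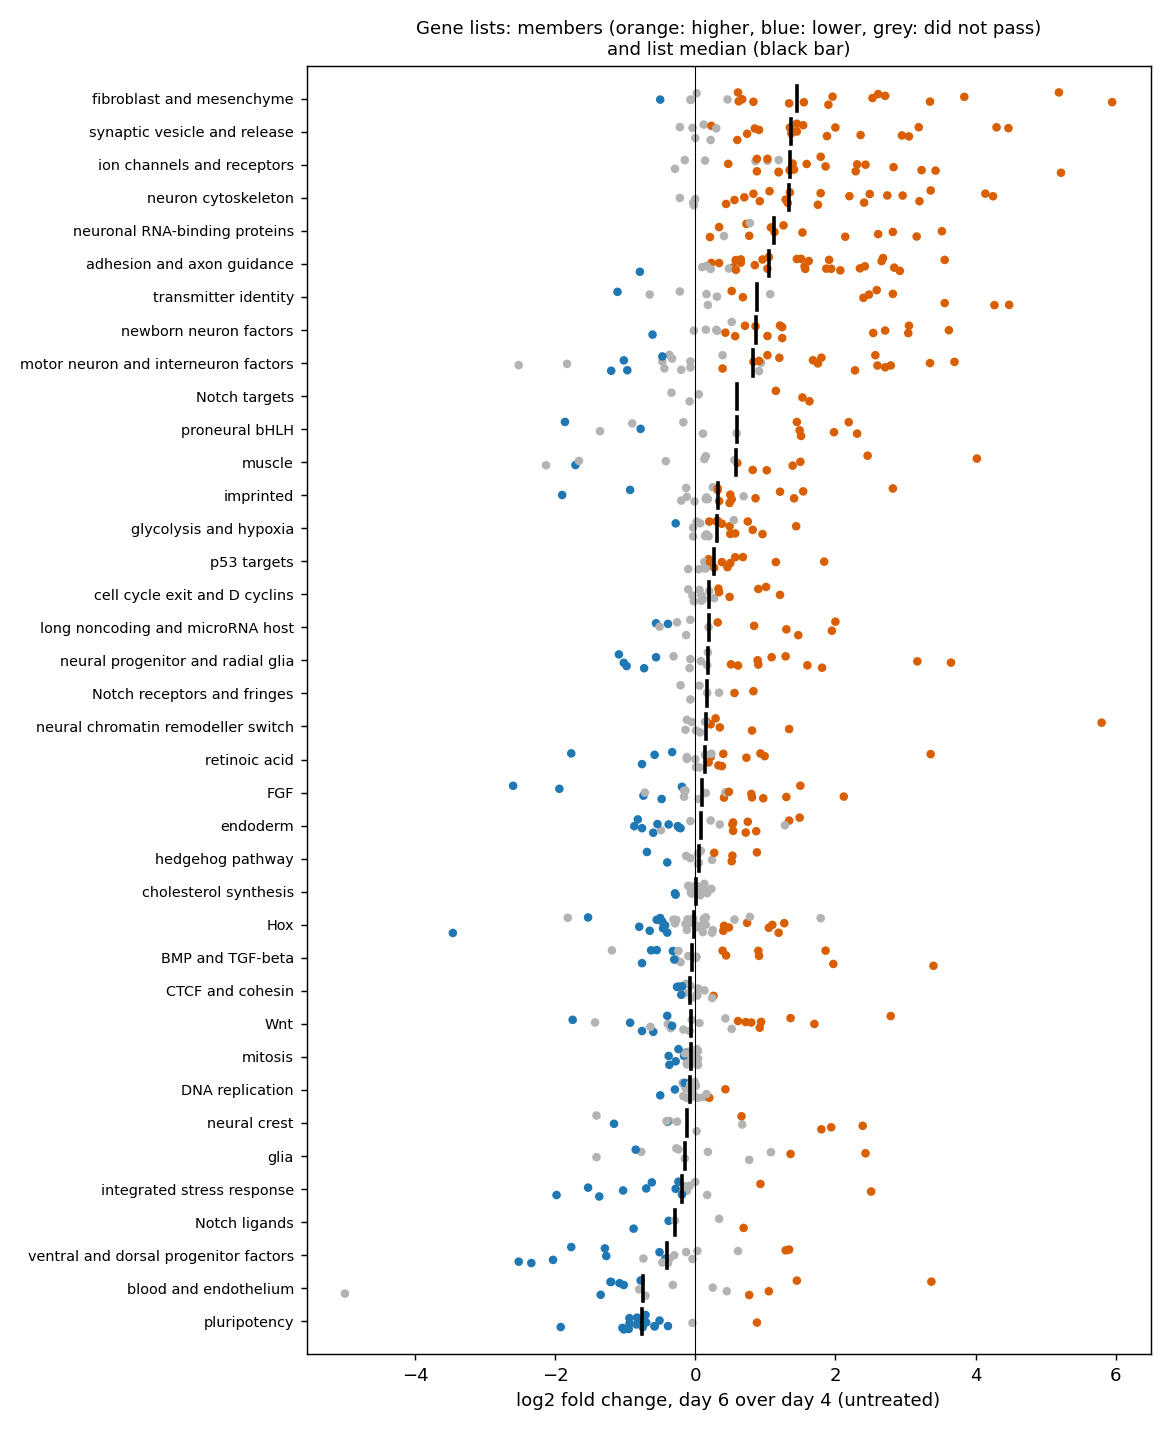
Log2 fold change, day 6 over day 4, of the tested members of the 38 gene lists (horizontal axis), with lists ordered by their median (vertical axis); orange points rose, blue points fell and grey points did not pass, and the black bar is the list's median. The medians run from 1.44 for the fibroblast and mesenchyme list to -0.76 for the pluripotency list, and the mitosis, DNA replication and cholesterol lists lie within 0.07 of 0.

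The cell cycle genes stayed near their day 4 level. Of 26 mitosis genes none rose, 6 fell and 20 did not pass, with a median of -0.07. Mki67, the Ki-67 antigen of cycling cells, had 481 and 533 CPM on day 4 and 502 and 448 CPM on day 6 (-0.09 ± 0.15, adjusted p = 0.72), so the groups overlapped. Ccnb1, cyclin B1, had 265 and 247 CPM and then 234 and 230 CPM (-0.14 ± 0.06, adjusted p = 0.073). The 2 members with the largest decreases, Cdc20 and Ccnb2, fell by 0.38 (SE 0.07, adjusted p = 5.3e-04) and 0.37 (SE 0.07, adjusted p = 6.9e-04) on the log2 scale. How many of the 26 were lower depended on the fit: 4 with total-count scaling, 3 without any single library of the 4, 10 without the day 2 auxin group and none with the stem cell libraries. Of 28 DNA replication genes 2 rose and 4 fell, with a median of -0.07; 2 were lower with total-count scaling or without any single library of the 4, and 9 without the day 2 auxin group; 1 was higher without replicate 2 of either day.

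The promoters of Ccnb2 and Cdc20 are shown because mitosis genes share 2 short elements that the comparison did not use: the cell cycle homology region (CHR, TTTGAA) and the CCAAT box (CCAAT), both searched on either strand. The windows have the same length and source as above, with both elements in capitals; Ccnb2 lies at chr9:70421505-70421804 and Cdc20 at chr4:118437294-118437593, both on the minus strand.
Ccnb2: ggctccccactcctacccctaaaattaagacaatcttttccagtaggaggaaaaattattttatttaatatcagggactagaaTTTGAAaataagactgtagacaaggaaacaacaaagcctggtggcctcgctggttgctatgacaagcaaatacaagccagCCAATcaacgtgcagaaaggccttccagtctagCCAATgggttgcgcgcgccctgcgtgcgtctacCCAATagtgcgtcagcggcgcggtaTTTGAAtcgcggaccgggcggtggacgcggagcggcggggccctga
Cdc20: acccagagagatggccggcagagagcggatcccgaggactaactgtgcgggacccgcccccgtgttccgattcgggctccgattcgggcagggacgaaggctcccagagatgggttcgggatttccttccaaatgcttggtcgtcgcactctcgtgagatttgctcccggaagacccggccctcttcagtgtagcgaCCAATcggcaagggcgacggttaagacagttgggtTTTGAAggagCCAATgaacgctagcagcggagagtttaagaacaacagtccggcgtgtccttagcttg
TTTGAA was present in 16 of the 21 mitosis genes with a promoter in the table (76.2%), against 18.1% of all 27025 promoters, and CCAAT in 18 of 21 (85.7%), against 37.9% of all. Of the 22 DNA replication genes with a promoter 3 (13.6%) held TTTGAA and 14 (63.6%) held CCAAT.

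In a list of cell cycle exit genes and D cyclins 6 of 15 rose and none fell (median 0.20). The D cyclin gene Ccnd3 (adjusted p = 1.3e-05) was 1 of the 6. Cdkn1c, the inhibitor p57 that is expressed as progenitors leave the cycle, had 4.21 and 4.05 CPM on day 4 and 8.11 and 11 CPM on day 6 (1.21 ± 0.16, adjusted p = 1.8e-05). Cdkn1a, the inhibitor p21 and a p53 target, had 62.2 and 62.7 CPM and then 123 and 128 CPM (1.01 ± 0.06, adjusted p = 8.8e-10). Other p53 targets were higher as well, 10 of 15 with none lower and a median of 0.27, led by the death receptor gene Fas (1.84 ± 0.15) and by Plk2 (1.15 ± 0.06). Cdkn1b, Cdkn2c, Ccnd1 and Ccnd2 did not pass.

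Pluripotency genes continued to fall: 18 of 20 were lower, 1 was higher and 1 did not pass, with a median of -0.76. The median from day 2 to day 4 was -1.25, and with the stem cell libraries in the fit 11 were lower. Only 3 of the falls were over 2-fold. Pou5f1, which encodes OCT4, had 403 and 376 CPM on day 2, 144 and 140 CPM on day 4 and 85.8 and 80.1 CPM on day 6 (-0.77 ± 0.07, adjusted p = 2.1e-07), so that its mRNA was still present on day 6. Nanog went from 19.1 and 19.1 CPM to 10.7 and 10.9 CPM (-0.83 ± 0.07, adjusted p = 3.0e-08). Klf2 fell most in this list, from 14.9 and 16.3 CPM to 3.37 and 4.83 CPM (-1.92 ± 0.16, adjusted p = 1.0e-07). Tdh, threonine dehydrogenase of stem cell metabolism, rose from 36.5 and 34.6 CPM to 63.8 and 66.9 CPM (0.88 ± 0.08, adjusted p = 1.3e-07), and Tdgf1 did not pass (adjusted p = 0.78).

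Among called genes whose log2 CPM averaged 1 or more, many of the steepest falls belonged to families that mark a rare, cleavage-stage-like state of embryonic stem cell cultures. All 9 tested Zscan4 genes fell (median -3.01), and their summed level went from 405 and 358 CPM on day 4 to 52.9 and 41.9 CPM on day 6, after 448 and 428 CPM on day 2. All 5 tested Usp17l genes fell (median -3.25), with summed levels of 158 and 147 CPM and then 18.5 and 14.9 CPM. The groups of day 4 and day 6 were far apart, while days 2 and 4 were close, with medians of -0.22 and -0.15 between them. Of the 100 steepest falls of such genes, 16 were genes of the Zscan4, Usp17l, Tdpoz and Pramef families, 41 carried only a gene-model name and 43 had other names; of the 100 steepest rises none, 1 and 99 did. Gm6489, a processed pseudogene, fell most among them, from 7.72 and 6.35 CPM to 0.611 and 0.545 CPM (-3.60 ± 0.21, adjusted p = 4.5e-10). Duxf3, a copy of the factor Dux that switches this programme on, fell by 2.74 on the log2 scale (SE 0.24, adjusted p = 9.3e-08), and Tmem92 fell from 39.6 and 35.3 CPM to 4.54 and 4.79 CPM; both were named after their values were seen. These families are near-identical copies, so the share of reads of single genes is uncertain and the sums are the firmer values. Under every scaling tried the 9 Zscan4 and 5 Usp17l genes were lower. The Tdpoz and Pramef genes did not all fall. Of 3 tested Tdpoz genes 2 were lower (median -2.34), and of 5 tested Pramef genes 2 were lower and 3 did not pass (median -0.32).

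Among called genes whose log2 CPM averaged 1 or more over the 4 libraries, the largest rise was not neuronal. Col3a1, a fibrillar collagen of connective tissue (chr1:45311538-45349706, plus strand), had 7.74 and 8.23 CPM on day 4 and 294 and 288 CPM on day 6 (5.19 ± 0.08, adjusted p = 7.8e-18). Of 20 markers of fibroblasts and mesenchyme 15 rose, 1 fell and 4 did not pass, with a median of 1.44, and their summed level went from 1388 and 1480 CPM to 2003 and 1922 CPM. The matrix protein genes Lum (5.95 ± 0.22), Dcn (3.84 ± 0.26) and Postn (3.35 ± 0.20) rose, and so did the transcription factor genes Prrx1 (2.71 ± 0.18) and Tbx18 (2.61 ± 0.14) of limb and mural mesenchyme. Meox1 of the somites fell from 75.8 and 78 CPM to 54.1 and 54.8 CPM (-0.50 ± 0.09, adjusted p = 2.6e-04). Fn1, Fbn1, Thy1 and Pdgfra did not pass.

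Contractile genes of smooth muscle rose together with the collagens. Myh11, the smooth muscle myosin, had 2.64 and 2.13 CPM on day 4 and 39.3 and 37.9 CPM on day 6 (4.02 ± 0.13, adjusted p = 2.3e-13), and Acta2, smooth muscle actin, had 60.1 and 64.5 CPM and then 337 and 348 CPM (2.46 ± 0.08, adjusted p = 4.1e-13). Actg2, another smooth muscle actin, rose by 4.23 ± 0.17. Of 14 muscle genes in the list 7 rose, 1 fell and 6 did not pass. Heart markers went in both directions: Myl7, an atrial myosin light chain, rose from 3.36 and 3.17 CPM to 8.31 and 8.76 CPM (1.39 ± 0.16, adjusted p = 4.1e-06), whereas Myh6, a cardiac myosin, fell from 1.2 and 1.54 CPM to 0.611 and 0.251 CPM. Myod1 and Myog of skeletal muscle had at most 0.203 CPM in each of the 4 libraries. The promoter of Actc1, cardiac actin, which rose from 7.59 and 7.45 CPM to 11.3 and 11.5 CPM (0.60 ± 0.14, adjusted p = 0.0046), is shown for its CArG box, the element bound by serum response factor. The motif was added after the results were seen. Of 11 muscle genes with a promoter 2 (18.2%), Actc1 and Myl7, held a CArG box on either strand, against 1.57% of all promoters; it begins 47 bases before the start of Actc1 and is in capitals in the window chr2:114052826-114053125 (minus strand, GRCm38.p6).
Actc1: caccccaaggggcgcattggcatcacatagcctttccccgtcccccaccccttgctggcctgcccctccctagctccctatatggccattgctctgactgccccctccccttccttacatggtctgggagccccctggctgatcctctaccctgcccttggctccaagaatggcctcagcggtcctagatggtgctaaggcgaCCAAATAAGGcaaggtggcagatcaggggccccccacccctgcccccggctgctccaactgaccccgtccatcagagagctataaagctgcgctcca

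Markers of other cell types gave mixed counts. Endoderm genes split, with 8 higher, 9 lower and 5 that did not pass of 22. The serum protein genes Afp (24.4 and 21.1 CPM, then 53.8 and 61.7 CPM, 1.34 ± 0.10, adjusted p = 2.0e-08) and Apoa1 (1.49 ± 0.10) rose. The regulators Sox17 (-0.87 ± 0.09) and Gata6 (-0.60 ± 0.06) fell. The split did not follow these kinds of gene: the apolipoprotein gene Apoe fell (adjusted p = 3.3e-05) and the regulator Cdx2 rose (adjusted p = 6.6e-04). Of 16 blood and endothelial genes 4 rose and 6 fell; without day 4 replicate 1 the number that fell was 2, and without day 6 replicate 1 it was 3. Pecam1, which stem cells also express, went from 44.2 and 45.5 CPM to 20.6 and 21.8 CPM (-1.08 ± 0.07). Emcn (adjusted p = 3.5e-05) and Csf1r (adjusted p = 2.5e-05) were among the 4 that rose. The embryonic globin gene Hba-x had 8 counts on day 4 and none on day 6, and did not pass (adjusted p = 0.072). Of 11 glial genes 2 rose, 1 fell and 8 did not pass; Gfap of astrocytes stood at 0.76 and 0.642 CPM and then 0.479 and 0.349 CPM (adjusted p = 0.059), and Sox10 of oligodendrocytes and neural crest at 0.304 and 0.184 CPM and then 0.033 and 0.14 CPM. The largest rises in the glial and neural crest lists were those of Cldn11 (2.43 ± 0.14) and Ngfr (2.39 ± 0.15). Neuronal, mesenchymal and endodermal genes were thus measured in the same libraries, and the part of each cell population in a change was not tested.

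Among signals, retinoic acid genes moved unevenly (9 of 21 higher, 4 lower). Aldh1a2, the main retinoic acid-synthesising enzyme of the embryo, had 10.5 and 11.9 CPM on day 4 and 111 and 119 CPM on day 6 (3.36 ± 0.10, adjusted p = 9.5e-14). The retinoic acid-induced genes Stra8 (403 and 398 CPM, then 117 and 118 CPM; -1.77 ± 0.08) and Cyp26a1, an enzyme that degrades it (669 and 643 CPM, then 389 and 388 CPM; -0.76 ± 0.08), fell. Cyp26b1 had 782 and 793 CPM and then 789 and 783 CPM (adjusted p = 0.98). Hox genes went in both directions, with 8 higher, 10 lower and 21 that did not pass of 39, and the lower count depended on single libraries. The anterior gene Hoxb1 fell from 37.3 and 34 CPM to 12.1 and 12.6 CPM (-1.53 ± 0.11, adjusted p = 5.2e-09), while Hoxc6, a gene of brachial level, rose from 7.7 and 7.88 CPM to 18.2 and 19.5 CPM (1.27 ± 0.10, adjusted p = 5.4e-08). Posterior genes also went both ways: Hoxb13 rose (adjusted p = 1.2e-07), and Hoxd11 had 23 counts on day 4 and 2 on day 6 (ratio 0.082, exact 95% interval 0.00937 to 0.332).

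The other signalling lists were also split. In the Wnt list (8 of 24 higher, 6 lower) Wnt4 went from 1.62 and 2.11 CPM to 12.4 and 13.5 CPM (2.79 ± 0.18, adjusted p = 1.9e-09), Wnt1 fell from 1.13 and 1.45 CPM to 0.347 and 0.419 CPM (-1.75 ± 0.60, adjusted p = 0.037, lost without any single library of the 4), and the response gene Axin2 did not pass (adjusted p = 0.62). In the BMP and TGF-beta list (7 of 20 higher, 5 lower) Bmp5 rose by 3.40 ± 0.18 and Tgfb2 from 10.3 and 11.3 CPM to 40.9 and 44.2 CPM (1.97 ± 0.09, adjusted p = 1.8e-11), whereas the ligand Lefty2 (-0.76 ± 0.16) and the target Id1 (-0.63 ± 0.09) fell. In the FGF list (8 of 20 higher, 5 lower) Fgf9 (2.12 ± 0.44) and the feedback inhibitor gene Spry1 (1.30 ± 0.09) rose and Fgf8 fell (-2.60 ± 0.80). The call of Fgf8 was lost without any single library of the 4, and 1 FGF gene was then lower in place of 5. The chemokine genes Cxcl15 (4.44 ± 0.14) and Cxcl12 (3.56 ± 0.06) rose, the second from 18.3 and 18.8 CPM to 213 and 226 CPM; Cxcl12 was named after its values were seen.

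Imprinted genes rose in 11 of 22 cases, with 2 lower and 9 that did not pass (median 0.32). Fewer rose with some single libraries left out. Igf2, an insulin-like growth factor (chr7:142650766-142666816, minus strand), had 369 and 380 CPM on day 4 and 2614 and 2676 CPM on day 6 (2.82 ± 0.07, adjusted p = 7.2e-15). H19, the noncoding RNA next to it, had 144 and 149 CPM and then 427 and 424 CPM (1.54 ± 0.06, adjusted p = 8.2e-12). The strand setting of the counting is not given, so reads of Igf2 and of its antisense gene cannot be told apart. Phlda2, a growth restrictor, fell from 1.99 and 1.74 CPM to 0.43 and 0.559 CPM (-1.90 ± 0.25), and Grb10 fell by 0.93 on the log2 scale (SE 0.07).

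Of 21 cholesterol synthesis genes none rose and 2 fell (1 without day 4 replicate 1 or either day 6 replicate; median 0.01), although the list's median had been -0.61 from day 2 to day 4; with total-count scaling 1 of the 21 was higher, and without the day 2 auxin group 4 were. Glycolysis and hypoxia genes were higher in 11 of 20 cases with 1 lower (none either way with the stem cell libraries in the fit, 7 higher without day 4 replicate 2 and 6 without day 6 replicate 1), led by Ankrd37 (1.44 ± 0.24) and Bnip3 (0.96 ± 0.10). In the integrated stress response 9 of 17 genes fell and 2 rose: the cystine transporter gene Slc7a11 went from 7.52 and 8.63 CPM to 2.56 and 3.02 CPM (-1.53 ± 0.16, adjusted p = 1.3e-06) and Trib3 from 16.4 and 15.5 CPM to 6.63 and 5.75 CPM (-1.37 ± 0.09, adjusted p = 5.3e-09), while Atf4 itself did not pass (adjusted p = 0.24).

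The degron target Ctcf (chr8:105636568-105682922, plus strand) had 230 and 232 CPM on day 4 and 207 and 208 CPM on day 6 and did not pass (-0.15 ± 0.08, adjusted p = 0.19); it passed in the fit of the contrast's groups alone and in the fit without the day 2 auxin group. Of 15 CTCF and cohesin genes 1 rose and 4 fell, but none passed without either day 4 replicate or with the stem cell libraries in the fit, 2 fell without day 6 replicate 1, and none fell without day 6 replicate 2. Of 13 genes listed for the neural chromatin remodeller switch 7 rose, and fewer did with some single libraries left out. The list holds subunits of BAF, a complex in which neurons exchange progenitor subunits for their own. It also holds Rest, Rcor1 and Rcor2, which are not BAF subunits. Actl6b, a neuronal BAF subunit, had 2 counts on day 4 and 132 on day 6, a ratio of 62.2 (exact 95% interval 16.9 to 519), and Dpf3 and Dpf1 rose by 1.34 ± 0.12 and 0.81 ± 0.14. Their progenitor counterparts Actl6a (adjusted p = 0.61) and Phf10 (adjusted p = 0.96) did not pass, nor did Rest (adjusted p = 0.36), a repressor of neuronal genes.

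Host genes of neural microRNAs rose, but the calls of those named here were lost with the stem cell libraries in the fit. The call of Mir124-2hg was also lost with DESeq2. Mir124a-1hg had 0.186 and 0.291 CPM and then 1.12 and 0.824 CPM (2.00 ± 0.38, adjusted p = 6.9e-04), Mir124-2hg had 5.61 and 5.49 CPM and then 13.7 and 13.7 CPM (1.30 ± 0.25, adjusted p = 7.6e-04), and Mir9-3hg had 0.743 and 1.12 CPM and then 1.32 and 2.01 CPM (0.84 ± 0.24, adjusted p = 0.013; lost without day 4 replicate 1 or day 6 replicate 2). The mature products of the Mir9-3 hairpin, which target the mRNAs of several progenitor factors, are shown to set the host gene beside its microRNA, with the seed (bases 2 to 8) in capitals; they come from RefSeq (GRCm38.p6, chr7:79505279-79505301 and chr7:79505318-79505339, plus strand). The counts do not measure the mature microRNAs.
mmu-miR-9-5p: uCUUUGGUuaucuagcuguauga
mmu-miR-9-3p: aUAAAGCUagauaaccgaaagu

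Levels can be compared between genes only per length of exon. Per kilobase, Tubb3 stood on day 6 at 38.6 and 42.6 CPM, Dcx at 4.19 and 4.16 CPM and Chat at 0.527 and 0.561 CPM, beside 38.2 and 35.6 CPM for Pou5f1, 29.9 and 29.4 CPM for Col3a1 and 49.9 and 44.6 CPM for Mki67. On that scale the level of Tubb3 on day 6 had reached that of Pou5f1.

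Rises over 2-fold were more frequent among genes with a long span. Expressed protein-coding genes (12318, log2 CPM averaging 1 or more) were ordered by their span in the genome and cut into 4 bins of equal size. In the bin of the longest genes (spans of 60.7 kb and more) 6.75% rose over 2-fold, against 2.95%, 2.53% and 2.44% in the other bins from the shortest up. Falls over 2-fold took in 2.82% of the bin of the shortest genes and 0.747%, 0.942% and 0.747% of the others. The median log2 fold change ran from -0.037 for the shortest to 0.023 for the longest genes. No test was made of this pattern.

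The same step could be compared in cells kept in auxin, which share no library with the 4 above. Whether the treated and untreated cells came from separate cultures is not known. There 5891 genes (26.1%) changed between day 4 and day 6, with 3.26% lower by over 2-fold. The difference between the untreated and the auxin step, tested as an interaction in the same fit, passed for 981 genes (4.34%), of which 507 (2.24%) moved more upward in untreated cells and 474 (2.1%) more upward with auxin. The counts of this difference varied several-fold with the libraries in the fit. Without the day 2 auxin group, the group with the widest spread between replicates (0.333), they were 1236 and 1275, and in a fit of all 24 libraries 24 and 6.

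Among neuronal genes the difference went mostly in 1 direction. Of 24 cytoskeleton genes 14 rose more in untreated cells and none more with auxin; the corresponding counts were 5 and 0 of 15 RNA-binding genes, 7 and 0 of 24 synaptic genes, and 13 and 5 of 33 adhesion genes. Stmn2 had 6.89 and 5.73 CPM on day 4 with auxin and 3.14 and 3.04 CPM on day 6 with auxin, so that it fell there (-1.02) while it rose in untreated cells; the difference was 3.43 (adjusted p = 5.0e-10). Elavl3 had 2.25 and 2.26 CPM and then 2.42 and 2.77 CPM with auxin, and its step differed by 2.41 (adjusted p = 1.3e-05). Dcx rose in both, by 2.90 with auxin, from 0.258 and 0.336 CPM to 2.57 and 1.92 CPM; its difference of 1.24 (adjusted p = 0.022) did not pass with 7 of 8 single libraries left out.

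Other groups took the step with auxin as well. The 9 Zscan4 genes fell with auxin (median -3.11) and none differed in the size of its fall, and the 20 mesenchyme genes had a median of 1.47 with auxin, with 15 that rose and none that fell. Within that list 6 genes rose more in untreated cells and 3 more with auxin, among the latter Osr1, which had 1.64 and 1.71 CPM and then 11.8 and 11 CPM with auxin. For pluripotency genes the median was -0.42 with auxin, and 8 of 20 fell more in untreated cells, among them Pou5f1 (difference -0.43, adjusted p = 0.018, not passing with 7 of 8 single libraries left out). Aldh1a2 did not share the rise: it had 39 and 39.2 CPM on day 4 and 42.4 and 45.4 CPM on day 6 with auxin, and its step differed by 3.19 (adjusted p = 1.7e-10).

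**Figure D4:**
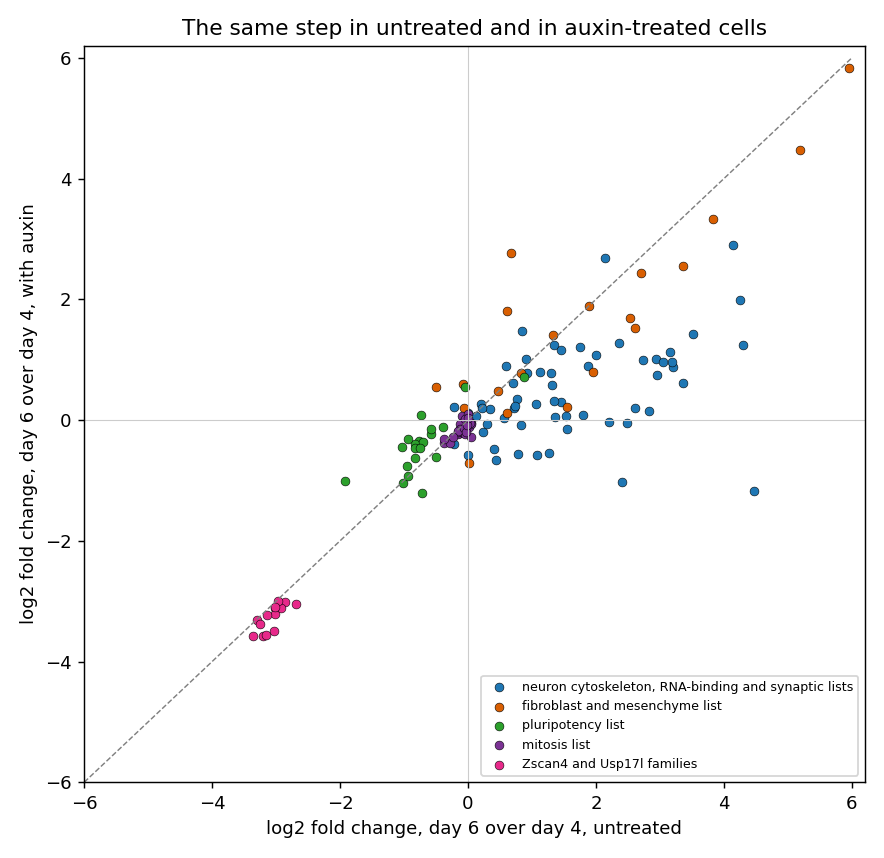
Log2 fold change from day 4 to day 6 with auxin (vertical axis) against that in untreated cells (horizontal axis) for tested members of 5 gene groups; the dashed line marks equal change. Most neuronal genes lie below the line on the right, Stmn2 at 2.41 and -1.02, while the Zscan4 and Usp17l families lie close to it, with medians of -3.01 and -3.25 in untreated cells and -3.11 and -3.38 with auxin.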

How the data were processed

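The deposited table gave whole-number counts per gene for all 24 libraries, made by the authors with STAR and HTSeq on mm10, per the submitters' processing notes, which also name edgeR; their versions, the annotation and the strand setting were not given in the sources used here. It held 51697 named genes; 1 line that named no gene was dropped. Library sizes for the 4 libraries were 61043565, 67118355, 61541152 and 72048935 counts. Of counts between 1 and 20 in them, 66.3% to 70.5% were even, so counts may not be single independent reads, and intervals cover counting error only.

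Counts were fitted in edgeR 4.0.16 (R 4.3.3, limma 3.58.1) with TMM scaling, filterByExpr (minimum count 10, minimum total 15) and the quasi-likelihood test, 1 mean per group over the 16 differentiation libraries, which share 1 estimate of the spread. The 8 stem cell libraries were left out, because an earlier analysis found their replicates more variable. CPM used TMM-scaled library sizes; log2 CPM used a prior count of 2. On simulated counts the fit was tested before use. Alternatives were DESeq2 1.42.0, 3 other scalings, no filter, other sets of libraries, a replicate block, counts divided by 2, each replicate left out, and an adjusted p under 0.01.

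Genes named were 29 key genes, the 12 steepest called genes each way whose log2 CPM averaged 1 or more over the 4 libraries and whose groups do not overlap, and, for each list, up to 6 called members with the largest change and up to 4 that did not pass or moved against the list. The members and the 38 lists were chosen with earlier results of these data known, and lists are described by counts and medians without a test. Of list members 717 of 719 were in the table. Gene positions and lengths come from GENCODE vM21, matched by symbol for 95.3% of tested genes. Promoters and microRNAs come from RefSeq (GRCm38.p6); matched promoters per list are given in the text. Some genes are not reported here.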

Additional observations from a re-analysis of the deposited data

Results flagged for a closer look

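For 16 named genes the step from day 4 to day 6 differed between untreated and auxin-treated cells by the interaction test of edgeR; values are the untreated minus the auxin log2 fold change with the adjusted p. Neuronal genes rose more in untreated cells: Stmn2 3.43 (5.0e-10), Nefm 2.74 (1.3e-06), Elavl3 2.41 (1.3e-05), Tubb3 1.74 (1.6e-06), Isl1 1.41 (7.2e-04), Dcx 1.24 (0.022) and Mnx1 1.15 (0.012). Nes differed by 0.54 (0.0044), Col3a1 by 0.71 (2.9e-04) and Aldh1a2 by 3.19 (1.7e-10). Pou5f1 and Pax6 fell more in untreated cells, with differences of -0.43 (0.018) and -0.62 (0.0043). The stress response genes Slc7a11 and Trib3 fell in untreated cells and rose with auxin, by 0.75 and 0.56, which gave differences of -2.28 (8.9e-06) and -1.93 (2.8e-07). Gli1 and Osr1 rose more with auxin, by 2.18 and 2.77, with differences of -1.66 (2.5e-06) and -2.10 (1.3e-06). Of the 29 key genes 10 passed this test; Nefm, Aldh1a2, Slc7a11, Trib3, Gli1 and Osr1 were added after their values were seen. Over 19 other settings Stmn2, Nefm, Aldh1a2, Slc7a11, Gli1 and Osr1 passed in each, Elavl3, Tubb3, Isl1, Nes, Pax6, Col3a1 and Trib3 failed only in the fit of 24 libraries, and Mnx1, Pou5f1 and Dcx failed in 7, 9 and 10.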

How the results depend on the processing

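Scaling moved the median log2 fold change of all genes by at most 0.024, and the share of called genes that rose from 50.9% to between 47.1% and 55.7%. The fit of 24 libraries, whose stem cell replicates vary more, moved every count: 663 genes rose and 551 fell, 568 and 431 over 2-fold, and the steps differed for 24 (untreated above auxin) and 6 genes (below). Leaving out 1 replicate gave 1813 to 1965 lower genes, and 276 to 327 and 233 to 301 differing genes; a lone sample is then assumed to vary like the other groups. An adjusted p under 0.01 gave 1822 lower genes and 254 and 215 differing genes. Differing genes numbered 1168 and 1473 with the groups of the contrast alone, and 1236 and 1275 without the day 2 auxin group. The cause of these shifts was not tested beyond the number of samples and the threshold. The median of the neural crest list (-0.12) ran from -0.34 to 0.19 with 1 replicate left out, reversing to 0.17 without day 4 replicate 2 and 0.19 without day 6 replicate 1. Of 264 called named genes 148 kept the call under all settings, 114 lost it in the fit of 24 libraries, 45 under other settings apart from the stricter threshold, and none reversed. Replicate numbers gave no consistent sign of pairing (correlation of deviations -0.038 between day 4 and day 6 controls, -0.31 to 0.285 over the pairs of groups). These correlations cannot show that the samples were unpaired. With the replicate block 2997 genes rose and 2903 fell, 1119 and 790 over 2-fold.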
